A study of Rattus norvegicus with 10 samples.

Results

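The Fos and Jun family genes are 7 genes that encode subunits of the transcription factor AP-1. There are 4 of the Fos family (Fos, Fosb, Fosl1 and Fosl2) and 3 of the Jun family (Jun, Junb and Jund). They were taken from the deposited counts by gene symbol, and each symbol gave 1 row of the 32545 genes in the table. All 7 passed the filter on low counts that left 15032 genes for testing. A gene is called here where edgeR's quasi-likelihood test gave a p-value under 0.05 after Benjamini-Hochberg adjustment. The mean level of each member was highest in the SKF group. None of the 7 was called in any of the 8 comparisons between groups, which called between 0% and 2.08% of all genes tested.

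AP-1 binds DNA as a dimer of basic leucine zipper proteins. Fos proteins do not form stable homodimers and pair with a Jun protein, whereas Jun proteins can also pair with each other. In neurons Fos, Fosb and Junb are immediate early genes, whose transcription starts within minutes of synaptic activity or of cAMP and calcium signalling and needs no new protein synthesis, and Fos is widely used as a marker of recently active hippocampal cells. Jund is the member with the steadiest expression in most tissues, and Fosl1 and Fosl2, also known as Fra-1 and Fra-2, tend to follow later after a stimulus.

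RNA from the CA1 region of hippocampal slices of male Wistar rats (adults aged 5 to 7 weeks, as given for the slices used in recordings) was sequenced in 5 groups of 2 libraries. The groups were SKF, which received an agonist at dopamine receptors of the D1 and D5 types; SKF+Aβ, with amyloid-β(1–42) oligomers at 200 nM in addition; SKF+Aβ+CSP, the vehicle group, with the carbon nanosphere CSP at 0.36 μg/ml; SKF+Aβ+CSP-TTK21, with the sphere conjugated to TTK21, which activates the histone acetyltransferases CBP and p300; and CSP-TTK21 alone, with neither SKF nor Aβ. The study's text gives 30 min of basal stimulation before treatment and collection of the slices 1 h after it. The untreated group is not analysed here, so no comparison below is with slices free of treatment, and CSP-TTK21 alone differs from SKF both in the missing agonist and in the added particle. The study calls the repeats biological replicates and describes each as a pool of 2 slices from 2 biological samples. Whether slices of 1 animal were divided among groups or repeats is not given in the sources used here, and the p-values measure the spread between these pools.

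Total counts were between 6753742 and 8473407 per library, and the members had between 214 and 4485 counts. A chi-square statistic of the counts in the 2 libraries of a group was taken over tested genes with a mean of at least 5 counts in that group. Expected counts came from the library totals over tested genes, without further normalisation. Divided by its degrees of freedom, the statistic was between 4.98 (vehicle group) and 12.7 (SKF), above the value of 1 that sampling alone would give. Of the markers fixed for CA1 and excitatory neurons, 6 of 8 were tested, among them the CA1 markers Wfs1 and Mpped1. Fibcd1 was at 0 in every group and Pou3f1 was not matched. Markers of dentate granule cells were also present, with Prox1 between 142 and 248 normalised CPM (counts relative to library totals that were adjusted by edgeR's TMM factors). The highest Prox1 value was that of SKF+Aβ replicate 1, against 167 in replicate 2. For the other tested dentate markers SKF+Aβ replicate 1 was below replicate 2. It had 49.2 against 52.5 for C1ql2, 3.63 against 8.05 for Dsp and 3.91 against 7 for Calb2. The same library had the highest Wfs1, 372 against 113 in replicate 2, and the lowest level of Slc17a7, the vesicular glutamate transporter gene, with 1020 against 1360. Wfs1 differed in the same way in SKF+Aβ+CSP-TTK21, with 339 and 111. None of the tested genes in 9 lists of cell type markers was called across the 5 groups. That test called 0.00665% of all genes tested, so it cannot show that the cell types were alike. The summed level of the oligodendrocyte markers was between 15372 and 22865 normalised CPM in SKF, 10408 and 14796 in SKF+Aβ, 16459 and 16841 in the vehicle group, 14141 and 23695 in SKF+Aβ+CSP-TTK21, with 14138 and 14420 for CSP-TTK21 alone, with all 5 markers detected. The summed level of the CA1 and excitatory neuron markers was between 3495 and 4228 in SKF, 3295 and 3449 in SKF+Aβ, 2941 and 3272 in the vehicle group, 3756 and 3773 in SKF+Aβ+CSP-TTK21, with 3104 and 3573 for CSP-TTK21 alone. Other lists also differed between some groups. The astrocyte markers summed to 3342 and 3470 in SKF+Aβ+CSP-TTK21 against 2666 and 2748 in the vehicle group. Endothelial and mural markers summed to 84.7 and 87.6 in SKF+Aβ+CSP-TTK21, and to at least 102.8 in each other group. Interneuron markers summed to 357 and 364 in SKF, and to at least 365.7 in each other group. The part of such differences in the results on the members was not tested. In these bulk samples, fewer cells that express a gene and less RNA per cell cannot be told apart.

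The sequences upstream of the transcription start were read for the members with an entry in the RefSeq promoter table (build GRCr8), and 3 windows of 250 bases are shown. Junb is shown as the member with the lowest p-value over the 5 groups, Jund as the one with a cAMP response element, the DNA site of CREB and of the cAMP pathway, and Fosl1 as the one whose level moved apart from that of Fos. Each line runs 5′ to 3′ and ends at the base before the annotated start. Capitals mark the TATA box in Junb and the cAMP response element in Jund, and Fosl1 had no match to the motifs searched.
Junb, chr19:40080876-40081125, plus strand: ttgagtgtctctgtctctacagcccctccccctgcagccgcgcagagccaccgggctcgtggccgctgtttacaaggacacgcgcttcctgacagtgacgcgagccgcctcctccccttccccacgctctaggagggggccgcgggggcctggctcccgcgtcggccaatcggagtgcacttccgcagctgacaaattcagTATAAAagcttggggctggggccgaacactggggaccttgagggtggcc
Jund, chr16:18769772-18770021, minus strand: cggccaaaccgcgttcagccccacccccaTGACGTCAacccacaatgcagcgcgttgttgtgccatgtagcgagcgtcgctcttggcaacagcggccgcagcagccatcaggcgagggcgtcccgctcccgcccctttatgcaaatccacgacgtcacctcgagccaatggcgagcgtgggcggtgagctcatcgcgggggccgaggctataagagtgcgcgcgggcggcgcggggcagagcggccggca
Fosl1, chr1:212183635-212183884, plus strand: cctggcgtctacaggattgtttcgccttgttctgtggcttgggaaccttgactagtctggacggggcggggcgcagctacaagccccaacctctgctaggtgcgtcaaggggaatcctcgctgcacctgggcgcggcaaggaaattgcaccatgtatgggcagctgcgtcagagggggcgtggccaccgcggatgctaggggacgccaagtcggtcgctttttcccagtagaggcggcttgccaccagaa
The motifs searched on both strands were the cAMP response element TGACGTCA, the AP-1 element TGANTCA, the TATA box TATAAA and the CArG box, the core of the serum response element. No match overlapped another. The TATA box of Junb lay 49 to 44 bases upstream of the start, and the cAMP response element of Jund 221 to 214 bases upstream. Of 33469 rat promoters of the same length, 1.59% held the cAMP response element, 6.34% the AP-1 element, 12.9% the TATA box and 1.5% the CArG box. In Fosl2, 250 bases at chr6:30039270-30039519 on the minus strand held none of these motifs. The window listed for Fosb did not end at the start given in the gene table, so its sequence is not shown. Fos and Jun had no entry.

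Fos, the founding member of the family, showed the widest range between libraries. The 2 SKF libraries had 489 and 599 normalised CPM and the SKF+Aβ libraries 190.3 and 473. With the vehicle CSP the values were 308 and 323, and with CSP-TTK21 in addition to SKF+Aβ they were 427 and 528. CSP-TTK21 alone gave 288 and 199.97. The highest library was therefore SKF replicate 2 and the lowest SKF+Aβ replicate 1, a ratio of 3.15. The SKF+Aβ libraries differed from each other by a factor of 2.49, the largest ratio between replicates of any member, while those of the vehicle group differed by a factor of 1.05. In the order of group means, from SKF through SKF+Aβ+CSP-TTK21, SKF+Aβ and the vehicle group to CSP-TTK21 alone, 3 of the 4 neighbouring groups overlapped.

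Fosb, which also gives rise by splicing to the long-lived protein ΔFosB, had the same order of group means as Fos. Its level was 453 and 498 in SKF, 284 and 473 in SKF+Aβ, and 280.4 and 416 in the vehicle group. It was 375 and 424 in SKF+Aβ+CSP-TTK21, with 363 and 196 for CSP-TTK21 alone. The SKF libraries lay above those of SKF+Aβ+CSP-TTK21, the next group by mean, and the other neighbouring groups overlapped. The counts are per gene and do not separate FosB from ΔFosB.

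Fosl1 and Fosl2 encode Fos family proteins that lack the strong transactivation domain of Fos. Fosl1 had 64.0 and 47.8 normalised CPM in SKF, 43.9 and 31.9 in SKF+Aβ, 46.5 and 38.0 in the vehicle group, 45.6 and 34.8 in SKF+Aβ+CSP-TTK21, with 39.2 and 36.4 for CSP-TTK21 alone. Both SKF libraries lay above the other 8, by a small margin in SKF replicate 2. In each group replicate 1 had the higher value, whereas for Fos replicate 2 was the higher in 4 of the 5 groups.

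For Fosl2, 1 library stood apart. SKF replicate 1 had 82.5 normalised CPM, and SKF replicate 2 had 43.5, within the range of the other groups. The values were 40.5 and 46.5 in SKF+Aβ, 37.8 and 41.2 in the vehicle group, 30.04 and 39.1 in SKF+Aβ+CSP-TTK21, with 44.2 and 31.8 for CSP-TTK21 alone. All 4 neighbouring groups in the order of means overlapped, and the mean in SKF, 63.0 ± 27.6 (SD, n = 2), had the largest SD of that gene.

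Jun, whose product is activated by the JNK kinases and is the classical partner of Fos, was tight in SKF. The values were 615 and 586 normalised CPM there, 285 and 508 in SKF+Aβ, and 425 and 480.2 in the vehicle group. They were 467 and 507 in SKF+Aβ+CSP-TTK21, with 477 and 313 for CSP-TTK21 alone. Both SKF libraries were above the other 8. SKF+Aβ replicate 2 reached the level of the SKF+Aβ+CSP-TTK21 libraries, and SKF+Aβ replicate 1 was the lowest of all.

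Junb, an immediate early gene whose product is a weaker activator than Jun at many sites, had the fewest overlaps, in 2 of the 4 pairs of neighbouring groups in the order of means. It had 275 and 237 normalised CPM in SKF, 94.6 and 188 in SKF+Aβ, and 137 and 148 in the vehicle group. It had 165 and 189 in SKF+Aβ+CSP-TTK21, with 137 and 92.6 for CSP-TTK21 alone. Both SKF libraries lay above the other 8, and both SKF+Aβ+CSP-TTK21 libraries lay above those of the vehicle and of CSP-TTK21 alone. The SKF+Aβ libraries, which differed by a factor of 1.99, overlapped with all groups but SKF.

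Jund had the smallest range, a ratio of 1.83 between the highest and the lowest library. It had 177 and 194 normalised CPM in SKF, 106 and 137 in SKF+Aβ, and 137 and 135 in the vehicle group. It had 119.7 and 159 in SKF+Aβ+CSP-TTK21, with 151 and 116 for CSP-TTK21 alone. Both SKF libraries again lay above the other 8, while the remaining 4 groups overlapped with their neighbours in the order of means.

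**Figure D1:**
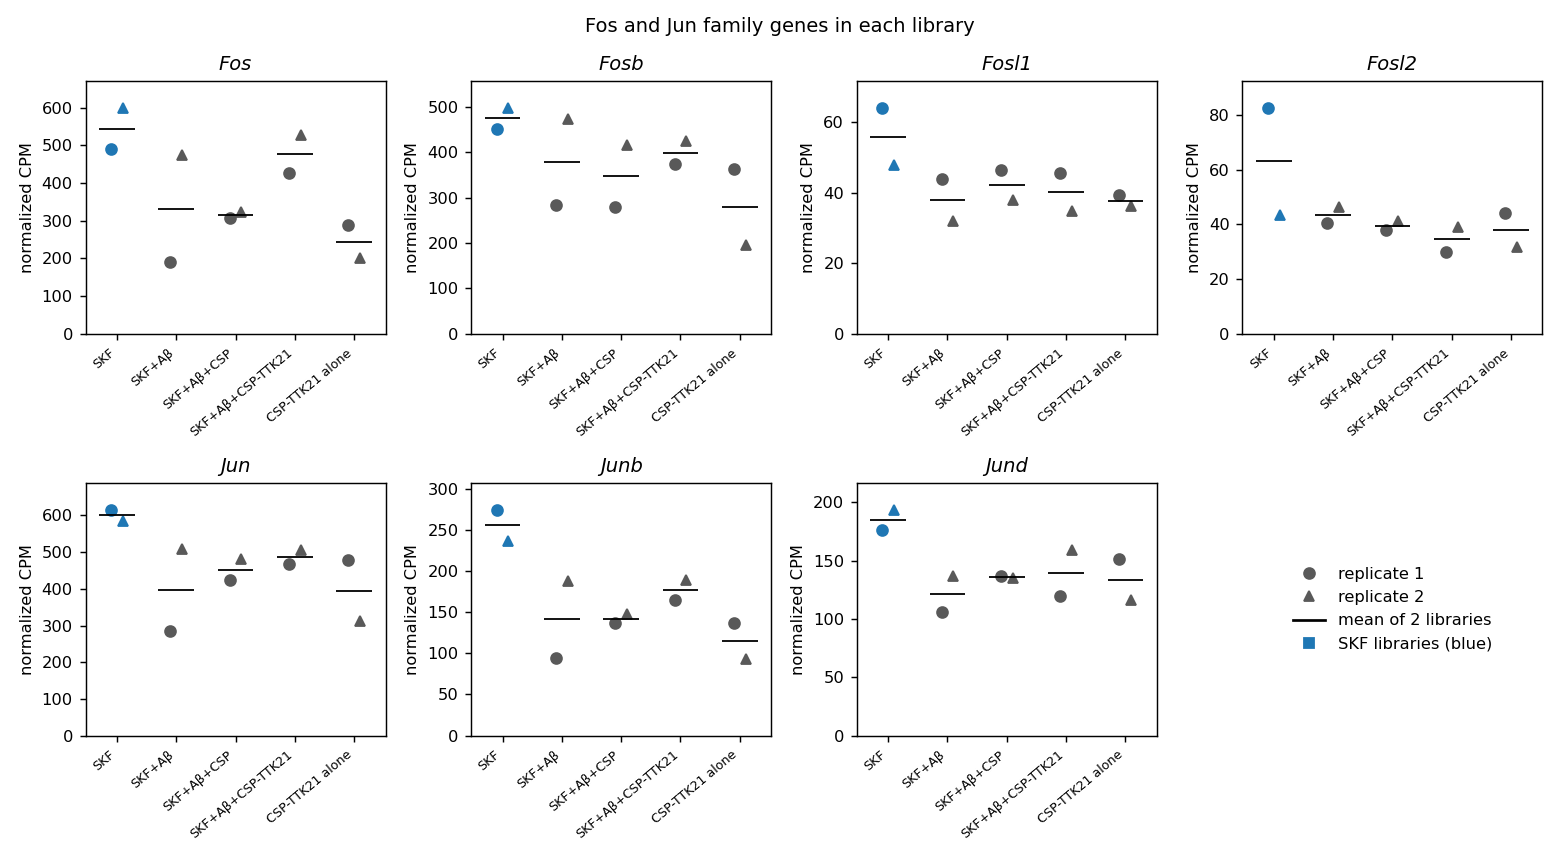
Level of each Fos and Jun family gene in normalised CPM (linear axis from 0) in the 10 libraries, with a circle for replicate 1, a triangle for replicate 2 and a line for the mean of the 2 libraries of a group. The SKF libraries, in blue, lie above the other 8 for Fosl1, Jun, Junb and Jund, and the SKF+Aβ libraries are far apart for Fos (190.3 and 473) and Junb (94.6 and 188).

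Taken as a sum over the 7 genes, the family had 2156 and 2205 normalised CPM in SKF, 1043 and 1858 in SKF+Aβ, 1371 and 1582 in the vehicle group, 1630 and 1882 in SKF+Aβ+CSP-TTK21, with 1501 and 986 for CSP-TTK21 alone. The SKF libraries were the highest and SKF+Aβ replicate 1 and CSP-TTK21 alone replicate 2 the lowest. SKF replicate 1 was among the 3 highest libraries for 7 of 7 members. CSP-TTK21 alone replicate 2 was among the 3 lowest for 7 of 7, and SKF+Aβ replicate 1 for 5. In a test of equal means over the 5 groups, 0 members were called, against 1 gene or 0.00665% of all genes tested. The lowest adjusted p was that of Junb (edgeR, adjusted p = 0.209), 4 members and 14.3% of all genes had an unadjusted p under 0.05, and DESeq2 (4.89% of the genes to which it gave an adjusted p) and limma called 0 members.

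The comparison of SKF+Aβ with SKF asks what the oligomers altered in slices given the agonist. All 7 members had a lower mean in SKF+Aβ, with a median log2 fold change of -0.60 against -0.0013 over all genes tested. None was called, while 2.08% of all genes were. The groups did not overlap for 5 of the 7, with SKF+Aβ the lower, as for 24.3% of all genes. Junb had 141 ± 66.3 normalised CPM with SKF+Aβ against 256 ± 26.8 in SKF (SD, n = 2), which is a log2 fold change of -0.86 (standard error, SE, 0.25, edgeR adjusted p = 0.0808). Jund was lower by a factor of 1.53 (log2 fold change -0.61, SE 0.18, edgeR adjusted p = 0.0750). For Fos the log2 fold change was -0.71, with a 95% interval from -1.37 to -0.062 that is not adjusted for the number of genes. Fosb, at -0.33, had an interval that included 0, from -0.92 to 0.26. It was at -0.76 without SKF+Aβ replicate 2 and -0.022 without SKF+Aβ replicate 1. Fosl2, at -0.53, was at -0.018 without SKF replicate 1 and -0.92 without SKF replicate 2. An unadjusted p under 0.05 was found for 5 members and 22.8% of all genes, limma called 0 and DESeq2 called 1 (Jund, adjusted p = 0.0226), where it called 8.93% of its genes. Without SKF+Aβ replicate 2 the log2 fold changes of Fos and Junb were -1.53 and -1.46, and both were called (edgeR, adjusted p = 0.0476). Without SKF+Aβ replicate 1 they were -0.22 and -0.46 and not called, so that the value depends on which SKF+Aβ library is kept.

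The other 3 groups were compared with the same SKF libraries, so the 4 comparisons with SKF are not independent of each other. In the vehicle group, all 7 members again had a lower mean than in SKF, with a median log2 fold change of -0.45 against 0.0022 over all genes. Without vehicle replicate 2 the median was -0.75. Fosb, the member at the median with all libraries, was at -0.77 in that fit and at -0.20 without vehicle replicate 1. None was called, where 0.02% of all genes were, and DESeq2 (4.62%) and limma called 0 members. An unadjusted p under 0.05 was found for 4 members, against 19.3% of all genes. The libraries did not overlap for 7 of the 7, against 25.3% of all genes with SKF the higher. Fosl2 had a log2 fold change of -0.67, which was -0.15 without SKF replicate 1, the library that stood apart, and -1.06 without SKF replicate 2. Fos had 315 ± 10.9 normalised CPM in the vehicle group and 544 ± 77.3 in SKF (SD, n = 2), which is a log2 fold change of -0.79 (SE 0.30, edgeR adjusted p = 0.185). Junb was lower by a factor of 1.80 (edgeR adjusted p = 0.112).

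In SKF+Aβ+CSP-TTK21, Fos and Fosb were the members closest to SKF with all libraries in the fit. Fos had 477 ± 71.3 normalised CPM (SD, n = 2), which is a log2 fold change of -0.19 against SKF with a 95% interval from -0.84 to 0.46, and Fosb had -0.25, with an interval from -0.84 to 0.34. Fos ranged from -0.37 without SKF+Aβ+CSP-TTK21 replicate 2 to -0.033 without SKF replicate 2, and Fosb from -0.36 to -0.16 without the one or the other library of SKF+Aβ+CSP-TTK21. Fosl1 was closer to SKF than both without SKF+Aβ+CSP-TTK21 replicate 2 (-0.31) and without SKF replicate 1 (-0.26). The intervals include no difference as well as a level lower by more than 1.5-fold. The member farthest from SKF was Fosl2, with a log2 fold change of -0.87 (SE 0.26, edgeR adjusted p = 0.129). It was called by DESeq2 (adjusted p = 0.0333), which called 4.58% of its genes, and by edgeR without SKF replicate 2 (-1.25, adjusted p = 0.0237), whereas without SKF replicate 1, the library that stood apart, its log2 fold change was -0.35. All 7 members had a lower mean than in SKF, the median was -0.41 (-0.24 without SKF+Aβ+CSP-TTK21 replicate 1), 0 were called (0.00665% of all genes) and limma called 0. The 1 gene called in the whole table became 335 without SKF replicate 2. An unadjusted p under 0.05 was found for 3 members and 19.6% of all genes. The libraries of 6 did not overlap, as for 24.5% of all genes.

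CSP-TTK21 alone, the group without agonist and oligomers, was the lowest for 5 of the members and lay 2.23-fold below SKF for Fos and Junb. Fos had 244 ± 62.5 normalised CPM (SD, n = 2) and a log2 fold change of -1.16 (SE 0.31, 95% interval from -1.81 to -0.50). Junb had 115 ± 31.4 and a log2 fold change of -1.16 (SE 0.25, 95% interval from -1.71 to -0.61). The other members were between -0.77 in Fosb and -0.47 in Jund, with a median over the 7 of -0.73 against 0.0023 over all genes. An unadjusted p under 0.05 was found for 7 of the 7 members and for 7.78% of all genes. None of the members was called, nor was any gene in the table (0%), the adjusted p of every member was 0.633 (edgeR), and DESeq2 (0.02% of all genes) and limma called 0 members. The libraries of 6 members lay below those of SKF without overlap, against 17.3% of all genes. Without CSP-TTK21 alone replicate 2 the log2 fold changes of Fos and Junb were -0.92 and -0.90, and without replicate 1 they were -1.46 and -1.48. Fosb was at -0.39 without replicate 2 and -1.29 without replicate 1, Jun at -0.33 and -0.96, and Jund at -0.29 and -0.69. Fosl2, whose value is the median of the 7, was at -0.20 without SKF replicate 1 and -1.12 without SKF replicate 2.

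**Figure D2:**
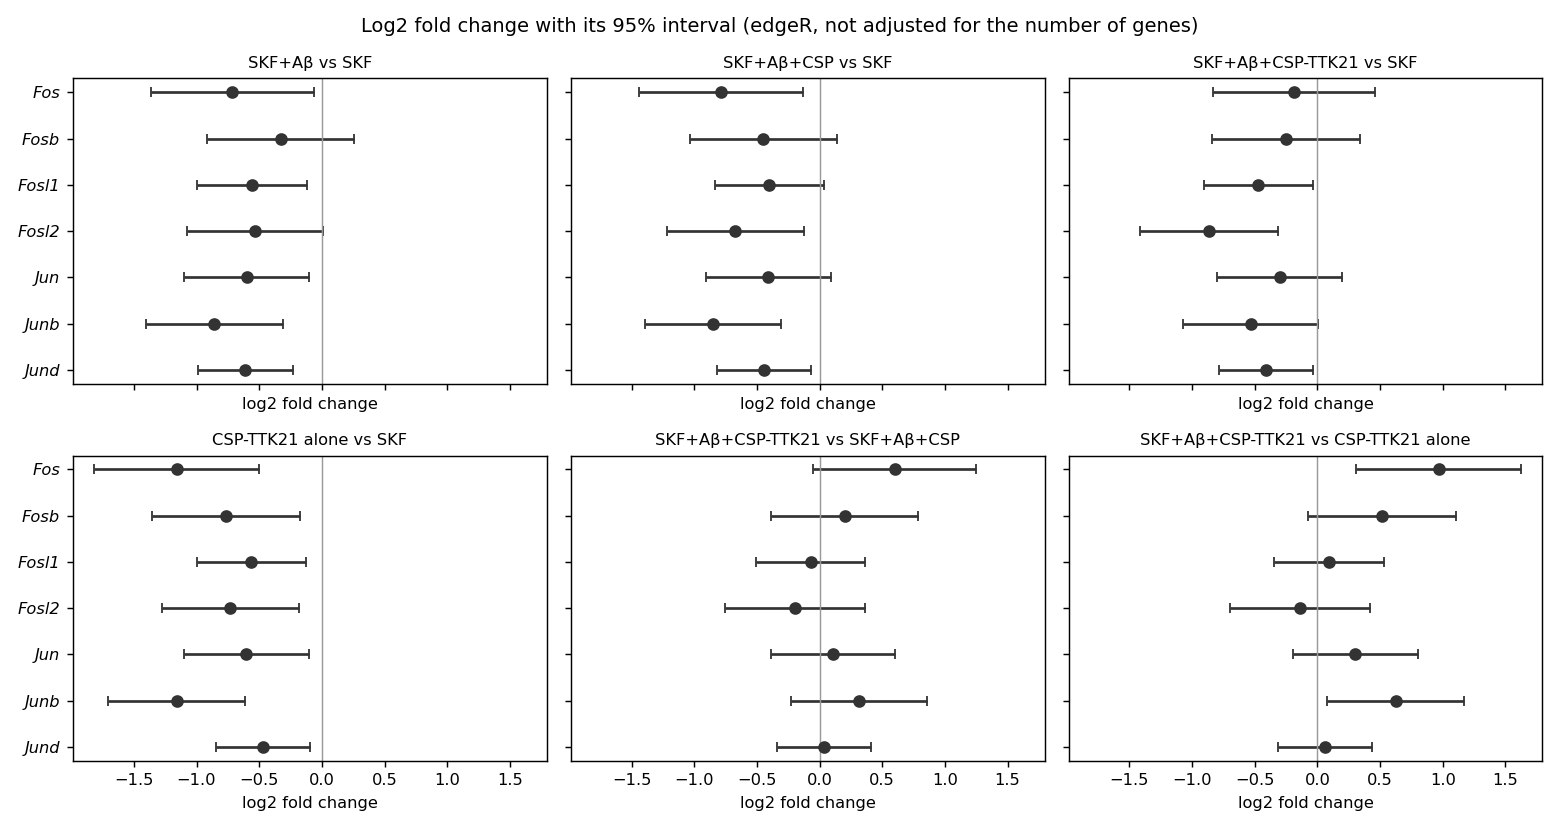
Log2 fold change of each member (point) with its 95% interval (bar) from the edgeR fit of 10 libraries, not adjusted for the number of genes, in 6 comparisons, with a vertical line at no change. Every point lies left of the line in the 4 comparisons with SKF, from -0.19 for Fos in SKF+Aβ+CSP-TTK21 to -1.16 for Fos and Junb in CSP-TTK21 alone, and all 7 intervals of the comparison between SKF+Aβ+CSP-TTK21 and the vehicle group include 0.

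After these values had been seen, SKF was also set against the equally weighted mean of the other 4 groups in the same fit. Since the contrast was chosen for the pattern it measures, its p-values do not account for that choice. Junb was 1.80-fold higher in SKF (log2 fold change 0.85, SE 0.19, edgeR adjusted p = 0.0431) and was the 1 member called, where 2.14% of all genes were. Those 321 genes became 1 without SKF+Aβ+CSP replicate 2, 7 without SKF replicate 1 and 639 without CSP-TTK21 alone replicate 1. The other 6 had log2 fold changes between 0.45 in Fosb and 0.71 in Fos, with adjusted p between 0.0651 and 0.215 (edgeR). The lowest of these was that of Fosl2, whose log2 fold change of 0.70 was 0.18 without SKF replicate 1 and 1.09 without SKF replicate 2. An unadjusted p under 0.05 was found for 6 members and 23.6% of all genes, and DESeq2 called 4 members and 10.3% of its genes. For 4 members, Fosl1, Jun, Junb and Jund, both SKF libraries lay above the other 8, as for 7.48% of all genes. The call of Junb was lost in 6 of the 10 fits that leave out a library, with adjusted p between 0.0605 without SKF replicate 2 and 0.257 without SKF replicate 1, where the log2 fold change was 0.75.

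Whether the vehicle, or TTK21 on it, altered the family in slices given SKF and Aβ was asked by 3 comparisons that share their libraries in pairs. Between the vehicle group and SKF+Aβ the members had log2 fold changes from -0.14 in Fosl2 to 0.19 in Jun. All 7 overlapped, while 14.3% of all genes were higher and 12.9% lower in the vehicle group without overlap. Of the members, 0 were called by edgeR (0% of all genes), DESeq2 (0.00665%) or limma, with 0 at an unadjusted p under 0.05 (2.18% of all genes). The 95% interval of Fos ran from -0.72 to 0.58, so that differences of these sizes in either direction lay within its error. When SKF+Aβ+CSP-TTK21 was compared with SKF+Aβ, Fos had a log2 fold change of 0.53 (SE 0.30, edgeR adjusted p = 0.758) and Junb 0.32. Again 0 were called by edgeR or DESeq2 (each 0% of all genes) or by limma, and 0 had an unadjusted p under 0.05 (6.59% of all genes). For Fosl2 the SKF+Aβ+CSP-TTK21 libraries lay below both SKF+Aβ libraries (log2 fold change -0.33), as for 17.7% of all genes. That value was -0.15 without SKF+Aβ+CSP-TTK21 replicate 1 and -0.54 without SKF+Aβ+CSP-TTK21 replicate 2. The other 6 overlapped, while 18.2% of all genes were higher in SKF+Aβ+CSP-TTK21 without overlap. The value for Fos was 0.011 without SKF+Aβ replicate 1 and 1.33 without SKF+Aβ replicate 2.

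Against the vehicle group, the SKF+Aβ+CSP-TTK21 libraries were higher without overlap for Fos and Junb, 2 of the 7 members, as for 23.5% of all genes. The mean of Fos was 1.51-fold higher (log2 fold change 0.60, SE 0.30, 95% interval from -0.053 to 1.25, edgeR adjusted p = 0.570). For Junb the log2 fold change was 0.32 (SE 0.25), and for the other 5 it was between -0.19 in Fosl2 and 0.20 in Fosb. The Fosl2 value was -0.012 without SKF+Aβ+CSP-TTK21 replicate 1 and -0.40 without SKF+Aβ+CSP-TTK21 replicate 2. None was called by edgeR (0% of all genes), DESeq2 (0.177% of its genes) or limma, and 0 had an unadjusted p under 0.05 (8.78% of all genes).

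CSP-TTK21 alone and SKF+Aβ+CSP-TTK21 shared the particle and differed in the agonist and the oligomers. Fos was 1.96-fold higher with both agents (log2 fold change 0.97, SE 0.30, 95% interval from 0.31 to 1.62), and Junb 1.54-fold higher (0.63, SE 0.25, interval from 0.080 to 1.17). These were the 2 members with an unadjusted p under 0.05, as 4.18% of all genes had, and the adjusted p of both was 0.963 (edgeR). Fosb, with 0.52, was the third member whose libraries did not overlap, and 3 of the 7 compares with 17.6% of all genes. Without CSP-TTK21 alone replicate 2 the values of Fosb and Junb were 0.14 and 0.37, and without replicate 1 they were 1.03 and 0.93. None was called (0% of all genes), also by DESeq2 and limma. Fosl1, Fosl2 and Jund had log2 fold changes of 0.091, -0.14 and 0.063.

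The members were also compared with each other over the 10 libraries, as a description, since the libraries share groups and no p-value is given. Pearson's r of the log2 CPM was 0.943 between Fos and Junb, 0.911 between Fos and Jun, 0.951 between Jun and Junb and 0.865 between Fos and Fosb. These 4 genes thus ranked the libraries alike, and Jund followed them with r from 0.701 with Fosb to 0.869 with Jun. Fosl1 stood apart, with r of 0.179 with Fos and 0.137 with Fosb. When each group's mean was removed, so that only the difference between replicates was left, r was 0.983 between Jun and Junb and 0.925 between Fos and Jun, and -0.683 between Fos and Fosl1. Fosl2 had r of 0.367 with Fos and 0.634 with Junb. Deviations from the means of groups of 2 libraries hold only 1 independent value a group, 5 in all.

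**Figure D3:**
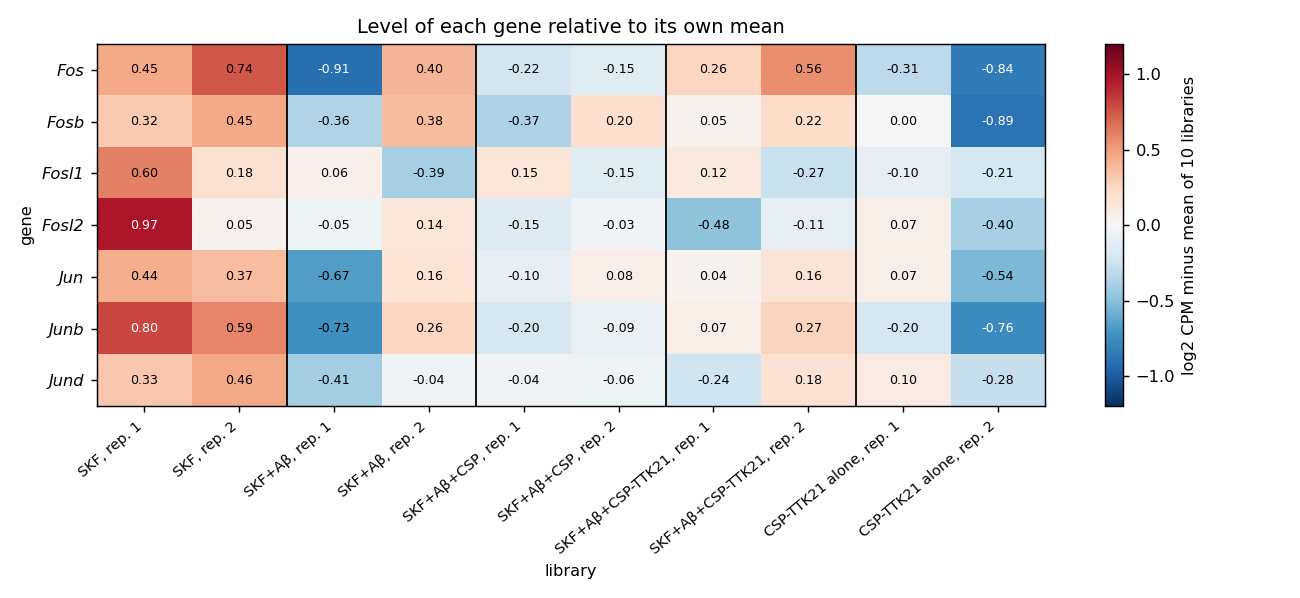
Log2 CPM of each member in each library minus the mean of that gene over the 10 libraries, with blue below and red above the mean and vertical lines between groups. The columns of SKF are above the mean for every member, from 0.05 for Fosl2 to 0.97 for Fosl2, and SKF+Aβ replicate 1 and CSP-TTK21 alone replicate 2 are below it for Fos (-0.91 and -0.84), Jun (-0.67 and -0.54) and Junb (-0.73 and -0.76).

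**Figure D4:**
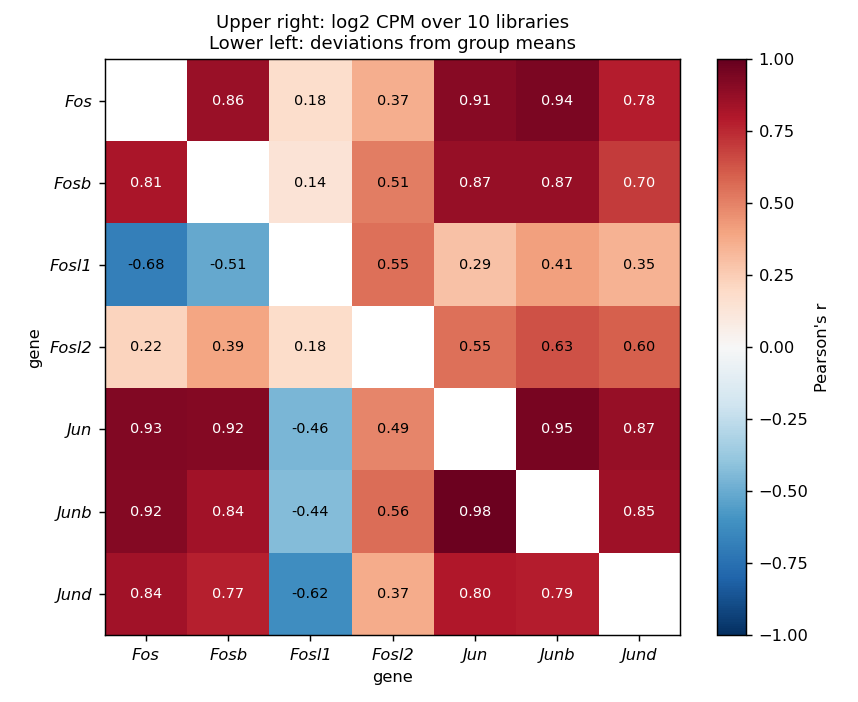
Pearson's r between the members, above the diagonal for log2 CPM over the 10 libraries and below it for the deviations from the group means, on a scale from -1 to 1. Fos, Fosb, Jun, Junb and Jund form a block with r of at least 0.701 above the diagonal, and Fosl1 has negative r with these 5 below it, down to -0.683 with Fos.

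Among all genes tested, the 3 whose log2 CPM followed each member most closely over the 10 libraries were listed. For Fos they were Junb, the zinc finger immediate early gene Egr1 (r = 0.942) and Rundc1 (r = 0.915), and Egr1 was also listed for Fosb (r = 0.954), with Slco3a1 and the histone gene Hist2h2ab, which had only 1.00 normalised CPM. For Jun they were Junb, Syt3 and Trib1, a pseudokinase gene (r = 0.928), and for Junb they were RGD1564664 (r = 0.974), Trib1 and Jun. Junb was thus listed for Fos and for Jun, and Jun for Junb, while the lists of the other 4 members held none of the 7. For Jund they were Ppp1r15a (r = 0.977), Rusc2 and Ankrd34a, for Fosl1 Lsm14b, Pus1 and Pdpn, and for Fosl2 Vars, Mir132 and Tmem145, of which Mir132 had 1.54 normalised CPM. None of these genes was called across the 5 groups, where 0.00665% of all genes tested were.

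Egr1, like Fos, had its lowest mean in CSP-TTK21 alone and its highest in SKF. The mean was 577 normalised CPM in SKF, 444 in SKF+Aβ, 429 in the vehicle group, 544 in SKF+Aβ+CSP-TTK21 and 295 for CSP-TTK21 alone. The log2 fold change of the last against SKF was -0.97 (SE 0.27, edgeR adjusted p = 0.633), and that of SKF+Aβ+CSP-TTK21 was -0.085. Among 33 tested immediate early genes outside the family, all 33 had a lower mean in CSP-TTK21 alone than in SKF. The median log2 fold change was -0.67 against 0.0023 over all genes, and 0 were called, as was no gene in the table (0%). In SKF+Aβ 27 of the 33 were below SKF, with a median of -0.28 against -0.0013 over all genes. Of the 33, 2 fell, beside 2.08% of all genes called in that comparison (184 higher and 128 lower). Myc, a transcription factor gene of cell growth, had 68.0 and 78.9 normalised CPM in SKF and 48.2 and 41.0 in SKF+Aβ (log2 fold change -0.72, SE 0.15, edgeR adjusted p = 0.0401). Gadd45b, which is linked to DNA demethylation in neurons, had 136 and 132 in SKF and 87.2 and 74.5 in SKF+Aβ (log2 fold change -0.73, SE 0.16, edgeR adjusted p = 0.0422). In the vehicle group and SKF+Aβ+CSP-TTK21, 28 and 26 of the 33 were below SKF. The medians were -0.38 and -0.29, against 0.0022 and -0.011 over all genes. In both, 0 were called, where 0.02% and 0.00665% of all genes were.

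Of 18 tested bZIP factors that pair with AP-1 proteins or share their kind of site, 2 fell in SKF+Aβ against SKF and 0 rose, where 2.08% of all genes were called. Atf5, a stress-responsive bZIP factor, had 43.8 and 57.4 normalised CPM in SKF and 20.0 and 23.5 in SKF+Aβ. All 8 other libraries lay below SKF, up to 34.2 in CSP-TTK21 alone. The log2 fold change was -1.22 (SE 0.18, edgeR adjusted p = 0.0230). Maff, a small Maf protein without a transactivation domain, had 105 and 103 in SKF and 65.0 and 60.2 in SKF+Aβ (log2 fold change -0.73, SE 0.16, edgeR adjusted p = 0.0416). The median of the list was -0.34 in that comparison, against -0.0013 over all genes. In any other of the 8 comparisons 0 of the 18 were called, where at most 0.02% of all genes were.

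Upstream of the family, 21 genes of SRF, its ternary complex partners, MAP kinases and MEF2 factors were tested, and 1 rose in SKF+Aβ against SKF (2.08% of all genes called). Mapk9, which encodes the Jun kinase JNK2, had 109.3 and 109.1 normalised CPM in SKF and 149 and 167 in SKF+Aβ (log2 fold change 0.53, SE 0.13, edgeR adjusted p = 0.0497). The list's median was 0.031, against -0.0013 over all genes. Of 12 negative regulators, 1 rose, against the same 2.08% of all genes. It was Rfwd2, the older symbol of Cop1, whose ubiquitin ligase marks Jun for degradation. It had 69.9 and 72.0 in SKF and 112 and 101 in SKF+Aβ (log2 fold change 0.58, SE 0.14, edgeR adjusted p = 0.0485). No gene of either list was called in another of the 8 comparisons, where at most 0.02% of all genes were.

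Of 22 tested genes described as AP-1 targets, 1 rose and 1 fell in SKF+Aβ against SKF, again beside 2.08% of all genes. Gria2, which encodes the AMPA receptor subunit GluA2, had 753 and 852 normalised CPM in SKF and 1353 and 1305 in SKF+Aβ (log2 fold change 0.73, SE 0.14, edgeR adjusted p = 0.0355). Ccnd1, the gene of cyclin D1, had 101 and 99.5 in SKF and 66.2 and 51.4 in SKF+Aβ (-0.77, SE 0.17, edgeR adjusted p = 0.0422). The list's median was -0.26 against -0.0013 over all genes. In the other 7 comparisons 0 were called, where at most 0.02% of all genes were. The 8 genes called from these lists all lost the call without SKF+Aβ replicate 1 (adjusted p from 0.147 to 0.203) and without SKF+Aβ replicate 2 (from 0.0503 to 0.139), where 1 and 13 genes in the whole table were called. They also lost it in a fit of the 4 libraries compared (from 0.0544 in Atf5 to 0.130 in Mapk9). Without SKF replicate 1, and without either library of the vehicle group, which is outside the comparison, Atf5 was still called and the other 7 were not. Without SKF replicate 2, Atf5 and Gria2 were called and 6 were not. Mapk9 lost the call in all 10 fits that leave out a library.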

How the data were processed

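The values that the authors deposited are raw counts of whole numbers, 1 row per rat Ensembl gene and 1 column per library, not normalised and not pooled. Libraries were made with a stranded kit after removal of ribosomal RNA and sequenced as paired 150 bp reads. According to the study's methods, reads were trimmed with Trim Galore, PCR duplicates were removed with Samtools, and alignment used TopHat2 before Cufflinks and Cuffdiff. The methods name Rnor_6.0 and later mm10, whereas the submitters' processing notes list STAR, RSEM, HISAT2, Salmon and the human build GRCh38. Which program made the deposited counts, with which annotation and strand setting, is not given in the sources used here. Genes that overlap others are therefore uncertain.

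Groups came from the sample labels. The counts were fitted with edgeR 4.0.16 in R 4.3.3 (filterByExpr by group, TMM factors, 1 quasi-likelihood fit of all 10 libraries with a mean per group, Benjamini-Hochberg adjustment over 15032 genes). The common biological coefficient of variation was 0.136. Standard errors were the absolute log2 fold change divided by the square root of F, and intervals of 95% used the fit's degrees of freedom. Log2 CPM for correlations had a prior count of 2. An exact permutation test of 1 gene between groups of 2 cannot go below p = 0.333, so tests rest on the spread shared across genes and groups. Alternatives were DESeq2 1.42.0, limma 3.58.1, RLE factors, other filters and call rules, a replicate block, the 4 libraries compared alone, and each library left out. The edgeR fit was also run on simulated counts in which 100 genes changed 2-fold and 100 changed 4-fold between SKF+Aβ and SKF. It recovered 83 and 100 of them, with 9 false calls. Each simulated gene had the same biological coefficient of variation, 0.136, so the result does not apply to genes that vary more between replicates. The members and gene lists were chosen with earlier results of these data known. From each pathway list the genes named were those called in a planned comparison, at most 6 by lowest p, and for each member the 3 genes with the highest r. Promoter windows came from RefSeq (GRCr8), with 5 of 7 members matched. Lengths of transcripts were not used, so levels are compared between groups and not between genes. Of the listed genes, Mkl2, Ier2, Vgf, Cop1, Pou3f1 and Pecam1 matched no row under these symbols.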

Additional observations from a re-analysis of the deposited data

How the results depend on the processing

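The 7 members kept a lower mean than SKF in the 4 comparisons with SKF under every alternative run, and the call of 0 members held in each of the 8 comparisons with limma, RLE factors, a minimum of 10 counts in every library, a fit of the 4 libraries compared, a fold change limit and the replicate block. DESeq2 called 1 member in SKF+Aβ against SKF (Jund), 1 in SKF+Aβ+CSP-TTK21 against SKF (Fosl2) and 4 in the contrast of SKF with the other 4 groups, beside 8.93%, 4.58% and 10.3% of the genes to which it gave an adjusted p. In that contrast the replicate block called 2 (Junb and Fosl1) and the fold change limit 0. Deviations of same-numbered libraries correlated from -0.0691 to 0.237 between groups, so that the numbers were not taken to pair the samples.

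An unadjusted p under 0.05 gave 4 members over the 5 groups, 5, 4, 3 and 7 in the comparisons of SKF+Aβ, the vehicle group, SKF+Aβ+CSP-TTK21 and of CSP-TTK21 alone with SKF, 2 in SKF+Aβ+CSP-TTK21 against CSP-TTK21 alone, and 6 in SKF against the other 4 groups. The shares of all genes were 14.3%, then 22.8%, 19.3%, 19.6% and 7.78%, then 4.18% and 23.6%. Without a filter on low counts the numbers were 6 over the 5 groups, 6, 4, 2 and 5 in the same comparisons with SKF, 1 against SKF+Aβ, 1 against the vehicle, 2 against CSP-TTK21 alone, and 7 in SKF against the other 4 groups. That fit of 25251 genes called 5.55% of them over the 5 groups, 5.19%, 2.99%, 3.57% and 0.622% in the comparisons with SKF, 0.507%, 1.22% and 0.249% in the next 3, and 5.68% in the last. In it the degrees of freedom of Fos were 126300, against 13.44 with the filter, and the standard error of its log2 fold change in SKF+Aβ against SKF was 0.146, against 0.303.

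With 1 library left out in turn, members called ranged from 0 to 2 in SKF+Aβ against SKF, 0 to 1 in SKF+Aβ+CSP-TTK21 against SKF and 0 to 3 in SKF against the other 4 groups. A group left with 1 library is assumed to vary like the others. Genes called in the whole table between SKF+Aβ and SKF ranged from 1 to 301 in these fits, against 312 with all libraries, and were 12 in the fit of 4 libraries, 822 with DESeq2, 1311 without the filter and 22 with the fold change limit. For SKF+Aβ+CSP-TTK21 against SKF they ranged from 0 to 335, against 1, with 108 under the replicate block, and for SKF against the other 4 groups from 1 to 639, against 321, with 565 under the block.

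No comparison with SKF changed direction. Between the vehicle group and SKF+Aβ the log2 fold change of Fos was 0.070 with limma, and with a library left out it ranged from -0.58 to 0.73. The ranges of the others that changed sign there were -0.44 to 0.30 in Fosb, -0.046 to 0.41 in Fosl1, -0.17 to 0.67 in Jun, -0.40 to 0.59 in Junb and -0.0064 to 0.37 in Jund. For SKF+Aβ+CSP-TTK21 against SKF+Aβ they were -0.24 to 0.50 in Fosb, -0.12 to 0.34 in Fosl1, -0.061 to 0.78 in Jun, -0.090 to 0.91 in Junb and -0.026 to 0.40 in Jund. Against the vehicle they were -0.062 to 0.51 in Fosb, -0.28 to 0.10 in Fosl1 and -0.19 to 0.23 in Jund, and against CSP-TTK21 alone -0.12 to 0.26 in Fosl1, -0.35 to 0.12 in Fosl2 and -0.17 to 0.27 in Jund. The cause was not tested. None of these was called with all libraries.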
